A study of Mus musculus with 9 samples.

Results

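Smooth muscle contractile genes were followed in mouse ovaries across postnatal day (PD) 14, 15 and 16, the time frame that the study set for the initial formation of the follicular antrum. The group held 10 genes, namely Cnn1, Acta2, Actg2, Myh11, Tagln, Des, Lmod1, Cald1, Mylk and Tpm2, which were taken by symbol out of 52025 genes in the tables. All 10 were found in every library. The data comprised 9 RNA-Seq libraries of Kunming mice, 3 for each day, which the study describes as independent ovaries. No genotype, transgene or agent is given for any day, and age is the single labelled difference between the groups. Levels are FPKM, that is fragments scaled by exon length and by the depth of the library, as deposited by the authors. A comparison of levels between genes rests on these lengths, and the annotation behind them is not given in the sources used here. For Acta2, Myh11 and Mylk the length used was not recovered.

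The labels give the tissue as ovary but the source as granulosa cells, whereas the study's text speaks of ovaries. The granulosa marker Inha averaged 2152 FPKM over the 9 libraries, the oocyte gene Zp3 342 FPKM, the steroidogenic Hsd3b1 1449 FPKM and the endothelial Cdh5 25.6 FPKM. RNA of several ovarian cell types was thus in every library, and the libraries were treated as ovary. In such bulk RNA, more cells of a type and more RNA per cell cannot be told apart. Depth was 20.4 to 28.7 M fragments per library, as derived from the steps between low FPKM. Genes whose mean FPKM exceeded 1 on some day were tested with limma on log2(FPKM + 1), and adjusted p-values are Benjamini-Hochberg values over all 15495 genes that passed. The filter was passed by 9 members on every day and by Tagln through PD16 alone (mean 1.16 FPKM, against 0.874 at PD14 and 0.914 at PD15). The p-values set the difference between days against the spread between libraries of the same day, which limma moderates over all genes. They speak for these libraries and not for mice at large.

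Smooth muscle shortens when calcium and calmodulin activate myosin light chain kinase, which phosphorylates myosin so that it can pull on actin filaments. Calponin, caldesmon and tropomyosin lie along these filaments, and desmin links them to the cytoskeleton. In the ovary, such cells are found in the walls of vessels and in the theca externa, the outer layer of the follicle. Many of their genes are driven by serum response factor with its partner myocardin, which bind a short element called the CArG box.

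The promoters of the members that the results turn on are printed here, since a CArG box near the start site is the known element of this gene class. The windows come from RefSeq on GRCm38.p6 and run 5′ to 3′ along the gene's strand, from 250 bases before the start site to 50 bases after it. Capitals mark CArG boxes with at most 1 mismatch to the box, and a window without capitals has none. Cnn1 lies at chr9:22099003-22099302 on the plus strand, Acta2 at chr19:34255324-34255623 on the minus strand and Lmod1 at chr1:135324563-135324862 on the plus strand.
Cnn1: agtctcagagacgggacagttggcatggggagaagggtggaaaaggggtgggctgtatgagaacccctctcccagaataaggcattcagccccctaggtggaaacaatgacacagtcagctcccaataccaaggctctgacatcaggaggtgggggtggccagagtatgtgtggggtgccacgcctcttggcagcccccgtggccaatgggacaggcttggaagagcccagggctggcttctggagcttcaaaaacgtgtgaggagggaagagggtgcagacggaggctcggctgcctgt
Acta2: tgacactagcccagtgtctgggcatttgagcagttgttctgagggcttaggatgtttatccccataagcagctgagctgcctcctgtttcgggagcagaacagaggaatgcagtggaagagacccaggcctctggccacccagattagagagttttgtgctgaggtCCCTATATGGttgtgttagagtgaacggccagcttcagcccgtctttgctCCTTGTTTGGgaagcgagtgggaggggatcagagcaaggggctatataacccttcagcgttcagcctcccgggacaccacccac
Lmod1: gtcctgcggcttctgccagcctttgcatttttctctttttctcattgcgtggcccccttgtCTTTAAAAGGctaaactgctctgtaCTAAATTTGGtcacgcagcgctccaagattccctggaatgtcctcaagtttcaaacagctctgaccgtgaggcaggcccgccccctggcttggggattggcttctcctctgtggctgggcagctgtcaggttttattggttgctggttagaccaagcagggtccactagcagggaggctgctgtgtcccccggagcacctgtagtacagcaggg
The boxes of Acta2 begin 84 and 34 bases before the start site, and those of Lmod1 189 and 164 bases before it. The search used the CArG box on both strands, which are the same because the box is its own reverse complement. Windows were given for 7 members, and Cald1 had 2. None of these 8 windows held an exact box, against 1.63% of all 32851 windows. A box with at most 1 mismatch was found in 3 of the 8, which belong to Acta2, Lmod1 and Cald1, and in 21.1% of all windows. At least 2 such boxes occurred in 3.70% of all windows, Acta2 and Lmod1 being among them. Actg2, Myh11 and Tagln were the members without a window. A match is a description of letters in this window only.

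The most abundant member was Acta2, the actin of smooth muscle, at 268 ± 38.5 FPKM (SD over the 9 libraries). This is a level above that of 99.2% of the genes tested, and 7.60-fold over that of the next member. Myh11, the smooth muscle myosin heavy chain, followed at 35.2 ± 5.23 FPKM, Mylk at 30.5 ± 3.42, Tpm2 at 29.1 ± 3.31, Actg2 at 27.2 ± 6.52 and Cald1 at 26.6 ± 1.81 FPKM. These 5 lay close together. Myh11 was above Mylk in 9 of 9 libraries, but Mylk was above Tpm2 in 6, Tpm2 above Actg2 in 7 and Actg2 above Cald1 in 3, so the order from Mylk to Cald1 was not settled by the libraries. From there the steps were clear in each library. Cnn1 averaged 9.82 ± 2.38 FPKM, Lmod1 4.36 ± 0.572, Des 2.01 ± 0.382 and Tagln 0.981 ± 0.231 FPKM, and each was above the next in 9 of 9 libraries. Tagln, the gene of the actin-binding protein transgelin (SM22), was thus at the bottom of the group, above 3.96% of the genes tested.

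**Figure D1:**
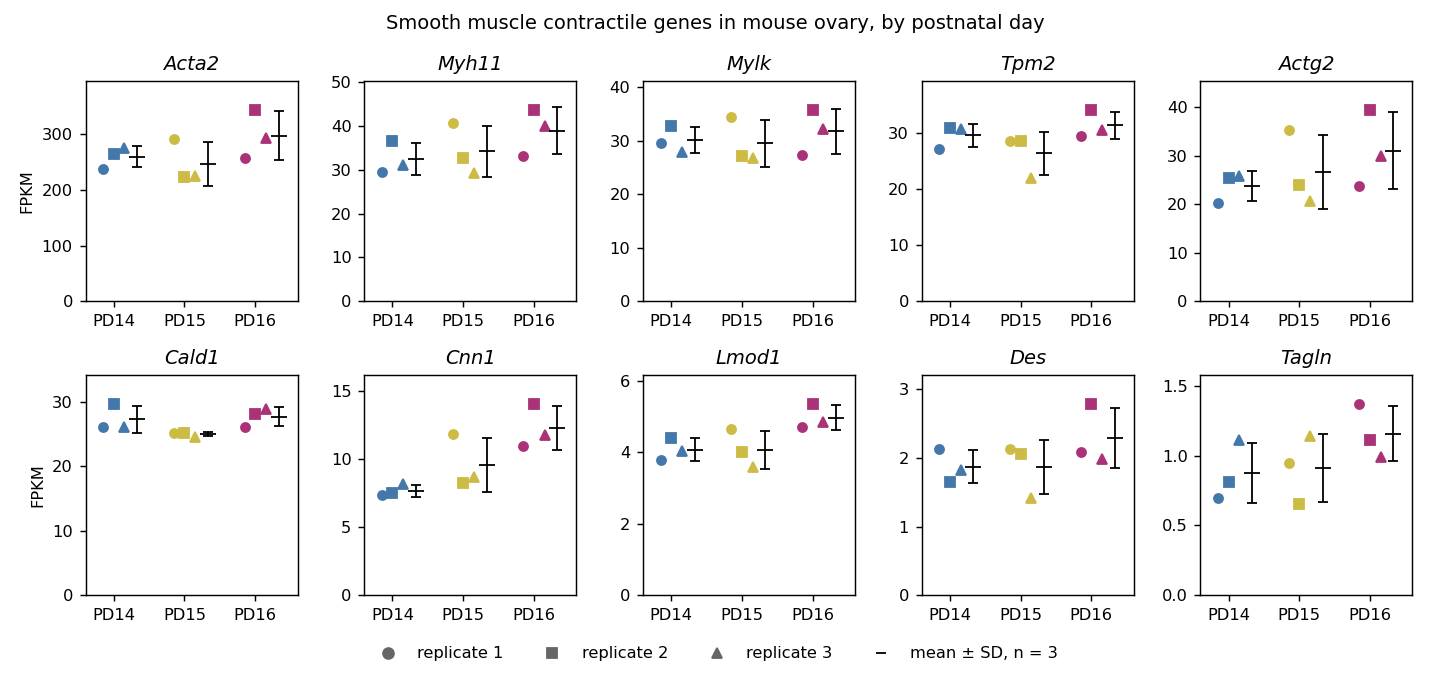
FPKM of the 10 smooth muscle contractile genes in each of 9 ovary libraries (y axis, from 0 in each panel) by postnatal day (x axis). Symbols are replicates, and black bars are the mean ± SD of 3 libraries. Cnn1 at PD16 sits between 10.9 and 14.1 FPKM, above all PD14 libraries, while the days overlap for most other members.

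Cnn1 (ENSMUSG00000001349), the gene of calponin 1, was the one member called between PD14 and PD16, while its F test over the 3 days in limma did not pass (adjusted p = 0.0666). The gene lies at chr9:22099216-22109630 on the plus strand (GRCm38). Cnn1 was at 7.32, 7.49 and 8.15 FPKM in the PD14 libraries, at 11.8, 8.20 and 8.64 FPKM at PD15 and at 10.9, 14.1 and 11.8 FPKM at PD16. All PD16 libraries were above all PD14 libraries, and so were those of PD15, although by little in replicates 2 and 3. The mean rose from 7.65 ± 0.435 to 12.2 ± 1.63 FPKM (n = 3 each), a ratio of 1.60. In limma the log2 change was 0.61 ± 0.13 (SE), with a 95% confidence interval of 0.32 to 0.90 and an adjusted p of 0.0348. The values rest on 454 to 873 fragments per library. At PD15, the change against PD14 was 0.27 (0.12 to 0.36 with 1 library left out) with an adjusted p of 0.368 and did not pass, and that from PD15 to PD16 was 0.34 with an adjusted p of 0.274. The call for PD16 depended on the libraries, as the adjusted p was 0.0655 to 0.0980 when any of the 6 libraries of PD14 or PD16 was left out and 0.0214 to 0.0415 when a PD15 library was left out. It was also lost without an expression filter (adjusted p = 0.0953), with libraries scaled to equal totals (0.0579) and with the replicate number as a block (0.0809).

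Acta2 and Actg2 encode the filament actins of vascular and visceral smooth muscle. Acta2 (ENSMUSG00000035783, chr19:34241090-34255590, minus strand) was at 238, 265 and 274 FPKM at PD14, at 292, 222 and 225 FPKM at PD15 and at 256, 344 and 292 FPKM at PD16. The days overlapped, with the second PD16 library the highest and PD15 replicates 2 and 3 the lowest. The log2 change was -0.08 from PD14 to PD15 (adjusted p = 0.830), 0.19 from PD14 to PD16 (0.447; 0.08 to 0.29 with 1 library left out) and 0.27 from PD15 to PD16 (0.417). Actg2 (ENSMUSG00000059430, chr6:83512905-83536265, minus strand) was at 20.3, 25.4 and 25.9 FPKM, then at 35.2, 24.0 and 20.7 FPKM, and at PD16 at 23.6, 39.4 and 30.0 FPKM. Its libraries also overlapped between all days, and 1 library at PD15 and 1 at PD16 stood above the others. The log2 change of Actg2 from PD14 to PD16 was 0.35, with a 95% confidence interval of -0.14 to 0.83 and an adjusted p of 0.370, so that a change as large as that of Cnn1 lies within it, and it ran from 0.16 to 0.52 with 1 library left out.

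The motor and its switch are encoded by Myh11 and by Mylk, the myosin light chain kinase. Myh11 (ENSMUSG00000018830, chr16:14194535-14291372, minus strand) was at 29.5, 36.6 and 31.2 FPKM at PD14, at 40.6, 32.8 and 29.2 FPKM at PD15 and at 33.2, 43.7 and 39.9 FPKM at PD16. No pair of days was separate. Its log2 change from PD14 to PD16 was 0.25 (95% confidence interval -0.05 to 0.56, adjusted p = 0.301). Mylk (ENSMUSG00000022836, chr16:34745210-35002420, plus strand) was at 29.5, 32.8 and 28.0 FPKM at PD14, at 34.5, 27.2 and 26.8 FPKM at PD15 and at 27.4, 35.8 and 32.1 FPKM at PD16. Here too the libraries of every pair of days overlapped. The log2 differences of Mylk were -0.03 from PD14 to PD15, 0.07 from PD14 to PD16 and 0.11 from PD15 to PD16, none of which passed the test.

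Tpm2, a tropomyosin of the thin filament, and Cald1, the gene of the actin- and myosin-binding caldesmon, were lowest at PD15. Tpm2 (ENSMUSG00000028464, chr4:43514711-43523765, minus strand) was at 27.2, 30.8 and 30.8 FPKM at PD14, at 28.6, 28.6 and 22.0 FPKM at PD15 and at 29.6, 34.1 and 30.5 FPKM at PD16. The PD16 libraries were above those of PD15 without overlap, and the third PD15 library was the lowest. Between these days the log2 change was 0.25 (adjusted p = 0.331), and from PD14 to PD15 it was -0.17 (0.501). Cald1 (ENSMUSG00000029761, chr6:34598500-34775473, plus strand) was at 26.1, 29.7 and 26.0 FPKM at PD14, at 25.1, 25.1 and 24.6 FPKM at PD15 and at 26.1, 28.1 and 28.8 FPKM at PD16. All PD15 libraries were below those of the other days, and they lay closer to each other than the libraries of either. With 6378 to 8836 fragments per library, Cald1 had the smallest standard error of the members, 0.07, and its log2 changes were -0.12 from PD14 to PD15 (adjusted p = 0.420), 0.02 from PD14 to PD16 (0.880) and 0.14 from PD15 to PD16 (0.361).

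Lmod1, leiomodin 1, starts new actin filaments in smooth muscle, and Des encodes the intermediate filament desmin. Lmod1 (ENSMUSG00000048096, chr1:135324807-135368065, plus strand) was at 3.77, 4.40 and 4.02 FPKM at PD14, at 4.64, 3.99 and 3.58 FPKM at PD15 and at 4.69, 5.36 and 4.84 FPKM at PD16. Every PD16 library was above every library of the earlier days. The log2 change from PD14 to PD16 was 0.24, with an adjusted p of 0.158 (unadjusted 0.0264), and that from PD15 to PD16 was also 0.24, with an adjusted p of 0.265. Des (ENSMUSG00000026208, chr1:75360329-75368579, plus strand) was at 2.13, 1.65 and 1.83 FPKM at PD14, at 2.13, 2.06 and 1.41 FPKM at PD15 and at 2.08, 2.79 and 1.99 FPKM at PD16. The days overlapped, and the second PD16 library was the highest. The log2 differences of Des were -0.01, 0.19 and 0.20 in the same order of comparisons, with none past the test, on 140 to 238 fragments per library.

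Tagln (ENSMUSG00000032085, chr9:45929619-45936058, minus strand) was at 0.698, 0.812 and 1.11 FPKM at PD14, at 0.948, 0.655 and 1.14 FPKM at PD15 and at 1.37, 1.11 and 0.989 FPKM at PD16. The days overlapped. Its log2 change was 0.03 from PD14 to PD15 (adjusted p = 0.945), 0.20 from PD14 to PD16 (0.414) and 0.18 from PD15 to PD16 (0.625). The level of Tagln is uncertain. It rests on 31 to 65 fragments, and in GENCODE M21 1349 of its 1988 exon bases (67.9%) are shared with other genes. Of these, 1241 overlap an antisense RNA on the plus strand (ENSMUSG00000111521, 0.193 to 0.441 FPKM) and 108 overlap Pcsk7 (5.57 to 6.18 FPKM). Whether counting used the strand is not given in the sources used here, and reads of overlapping genes cannot be told apart without it. Such an overlap is rare, as 1.08% of 14705 genes tested with an exon length share over 50% of their exon bases and 68.6% share none. Of the other members, Des shares 5.86% of its exon bases with an antisense RNA (at most 0.0485 FPKM) and the other 8 share none. The part of the overlap in the low level of Tagln was not tested. No member shares a stretch of 100 bases with a transcript of another gene, which bears on Acta2, Actg2 and Myh11 because close paralogues exist. Of stretches of 50 bases, 0.326% in Acta2, 0.340% in Myh11 and 0.107% in Mylk also occur in other genes, and none in the other members.

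Over the group, each member had its highest mean at PD16, and 1 comparison of 1 member passed the test. From PD14 to PD15, 4 members were higher and 6 lower, where 51.9% of all genes were higher, and limma called 0 of the 10, where 0.678% of all genes tested were called. No member had an unadjusted p under 0.05 in this comparison, against 14.7% of all genes. The libraries did not overlap for 1 member that was higher, Cnn1, and 1 that was lower, Cald1, against 10.4% and 10.2% of all genes. The median log2 change of the members was -0.01, and that of all genes 0.01. From PD14 to PD16, 10 of 10 members had a log2 change above 0 (with equal totals 9 of 10, Cald1 being at -0.00357), as had 52.2% of all genes, with a median of 0.20 against 0.01. Tagln, which entered through its PD16 level, had to be higher there on average, and without it 9 of 9 were above 0, with a median of 0.19. Only Cnn1 was called, where 4.25% of all genes were called and 2.36% were called higher, so that 1 of 10 is not a count from which more can be read. Cnn1 and Lmod1 had an unadjusted p under 0.05, as had 22.8% of all genes, and were higher without overlap, as were 15% of all genes. From PD15 to PD16, again 10 of 10 were above 0, as were 53.1% of all genes, with a median of 0.21 against 0.01, and without Tagln 9 of 9, with a median of 0.22. With 1 library left out these medians fell to as low as 0.12 from PD14 (without PD16 replicate 2) and 0.13 from PD15 (without PD15 replicate 3). None was called by limma (0.729% of all genes were), and 3 (Cnn1, Lmod1 and Tpm2) had an unadjusted p under 0.05, as had 14.1% of all genes. Lmod1, Cald1 and Tpm2 were higher without overlap, against 9.85% of all genes. The last 2 comparisons share the PD16 libraries, so their directions are not separate observations.

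**Figure D2:**
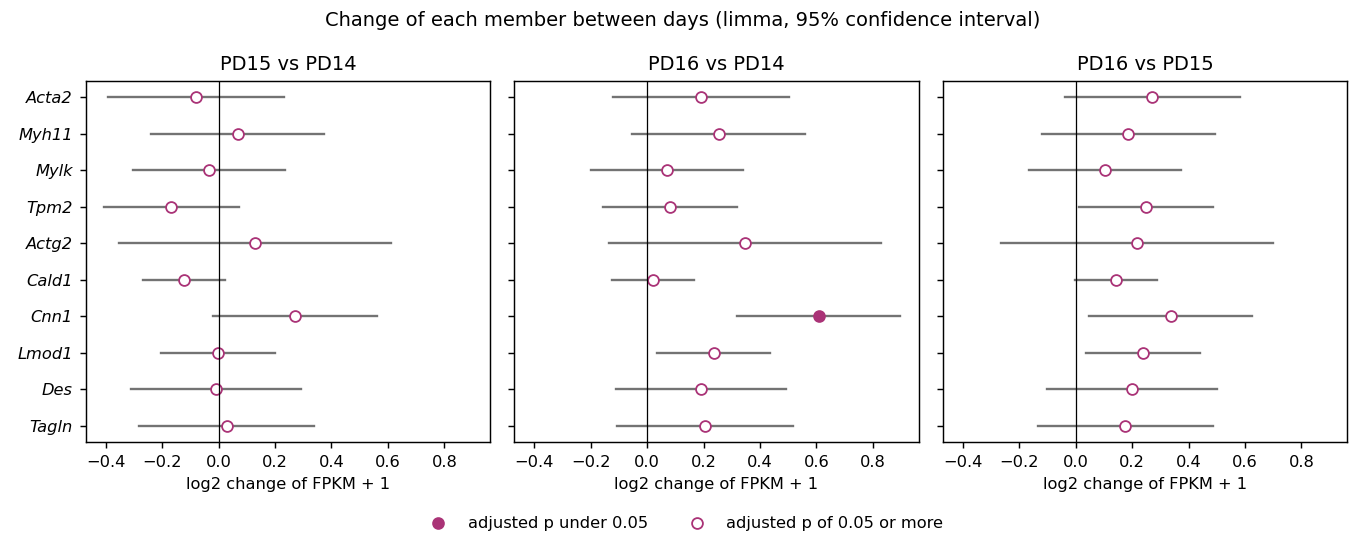
Log2 change of each member on the log2(FPKM + 1) scale (x axis) in the 3 comparisons of days, with 95% confidence intervals from limma. Filled points have an adjusted p under 0.05, which applies to Cnn1 from PD14 to PD16 (0.61), and all 10 points lie above 0 in both comparisons with PD16, Cald1 from PD14 so closely that it was -0.00357 with equal totals.

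Most members also varied together between libraries of the same day, although no share of all genes is given beside the counts that follow. In PD15 replicate 1, 10 of 10 members were above their own day's mean on the log2 scale, by 0.19 on average. PD16 replicate 2 had 9 of 10 above it, by 0.15. In PD14 replicate 1, PD15 replicate 3 and PD16 replicate 1, 1 of 10 was above the day's mean, and the average deviations were -0.08, -0.14 and -0.13. With the day means removed, the highest Pearson correlations of log2 levels over the 9 libraries were 0.97 for Acta2 with Actg2, 0.96 for Cnn1 with Acta2 and 0.95 for Myh11 with Lmod1. Others were lower, such as 0.54 for Cnn1 with Tpm2, and Des ran from 0.46 with Myh11 to 0.66 with Tpm2, Tagln and Cald1 aside. Tagln did not follow the other members, with correlations of -0.46 to 0.16 with them. Cald1 followed some members weakly, with correlations of -0.10 with Des, 0.14 with Cnn1, 0.36 with Acta2 and 0.37 with Tpm2. These correlations are descriptions over 9 libraries in which every gene shares the depth scaling of its library. The summed FPKM of the members ran from 384 to 434 at PD14, from 363 to 475 at PD15 and from 415 to 548 at PD16, and Acta2 made up most of each sum.

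**Figure D3:**
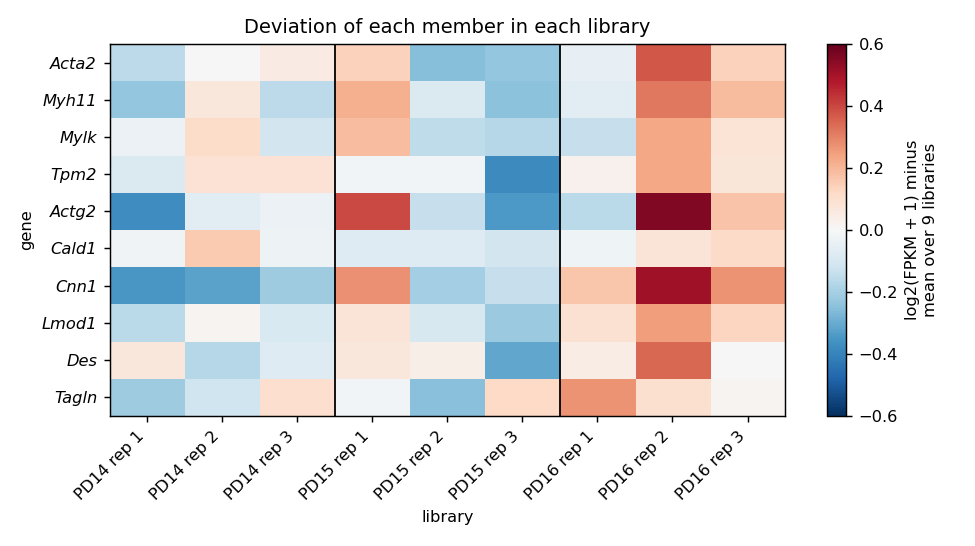
Deviation of log2(FPKM + 1) from the gene's mean over 9 libraries (colour, blue below and red above) for the 10 members (rows) in each library (columns, black lines between days). PD16 replicates 2 and 3 are above the mean for 10 of 10 members and PD15 replicate 1 for 7 of 10, all but Cald1, Tagln and Tpm2.

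The genes whose pattern over the 9 libraries was most like the mean of the members were, among 15485 other genes tested, Kansl2 (Pearson's r = 0.983), Yy1 (0.951), Wars (0.942), Tspan2 (0.939) and H2afy (0.936). With day means removed they were Sulf2 (0.979), Kansl2 (0.972), G6pc3 (0.968), Afg3l1 (0.966) and Rrs1 (0.961). With 9 libraries and so many genes, high values are to be found for any profile, and no p is given.

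The other parts of the contractile apparatus were followed by 4 further lists. Of 28 genes of the wider smooth muscle apparatus, 24 were tested. Synpo2 passed the filter through its PD16 mean alone, so it had to be higher there on average. From PD14 to PD16, 16 of the 24, Synpo2 included, were higher and 8 lower, where 52.2% of all genes were higher. The median log2 change of the 24 was 0.05, and limma called 1, where 4.25% of all genes were called. It was Ppp1r14a, which encodes CPI-17, an inhibitor of myosin phosphatase. Ppp1r14a was at 15.6, 17.7 and 17.7 FPKM at PD14, at 11.4, 11.9 and 11.7 FPKM at PD15 and at 10.1, 12.3 and 12.3 FPKM at PD16. All libraries of the later days were below those of PD14. It fell by 0.51 on the log2 scale at PD15 (adjusted p = 0.0356) and by 0.52 at PD16 (adjusted p = 0.0148). The PD16 call was lost without PD14 replicate 3 (0.0613), and the PD15 call without PD14 replicates 2 or 3 or any PD15 library (0.0715 to 0.131), without the filter on low genes (0.102) and with equal totals (0.0605). The 4 most abundant genes of this list were Myl9, the regulatory light chain that Mylk phosphorylates, Flna, Myl6 and Tpm1, at 214, 109, 100.3 and 85.7 FPKM on average, and their log2 changes from PD14 to PD16 were 0.04, 0.11, -0.04 and 0.14 without a call.

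Of 20 genes of ion channels, pumps and receptors, 13 were tested. At PD16, 10 were higher than at PD14 and 1 was called, where 52.2% of all genes were higher and 4.25% were called. Kcnmb1, one of the 10, passed the filter through its PD16 mean alone, so it had to be higher there on average. The call was Atp2a2, the calcium pump of the sarcoplasmic reticulum (SERCA2), which many other cells also use. Its levels were 59.4, 57.7 and 54.0 FPKM at PD14, 68.7, 61.9 and 61.3 FPKM at PD15 and 67.9, 73.8 and 69.8 FPKM at PD16. All PD16 libraries were above those of PD14. The log2 change was 0.30 ± 0.07 (SE, adjusted p = 0.0411), and it passed in 2 of the 9 fits that left out 1 library, those without PD15 replicate 1 or 3, with an adjusted p of up to 0.137 in the others, and in 5 of 10 other alternatives (up to 0.125). Ednra, the endothelin A receptor, averaged 17.7 FPKM at PD14 and 22.5 FPKM at PD16 (log2 change 0.33, adjusted p = 0.0825), and the log2 changes of Gucy1a3 and Npr1, which belong to cyclic GMP signalling, were -0.14 and -0.08 without a call.

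The axis of serum response factor and myocardin held 20 genes, of which 19 were tested. From PD14 to PD16, 12 were higher and 7 lower, and 4 were called, where 52.2% of all genes were higher and 4.25% were called. Myocd, the gene of myocardin, was at 1.70, 2.07 and 1.60 FPKM at PD14, at 3.06, 1.98 and 1.84 FPKM at PD15 and at 3.84, 3.60 and 3.50 FPKM at PD16. All PD16 libraries were above all others, and PD15 replicate 1 was the highest of the earlier days. The mean rose from 1.79 ± 0.244 to 3.65 ± 0.172 FPKM, a log2 change of 0.74 ± 0.13 (SE) with an adjusted p of 0.0235. The call was lost without PD14 replicate 1 or 3 or PD16 replicate 1 or 2 (0.0572 to 0.0875). Srf itself averaged 18.2 FPKM at PD14 and 22.1 FPKM at PD16, a log2 change of 0.27 with an adjusted p of 0.0516 in limma. It was higher without overlap between these days, as were 15% of all genes. The actin-sensing coactivators Mkl1 and Mkl2 had log2 changes of -0.04 and 0.09 without a call.

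Fhl2, a LIM-domain partner of serum response factor, rose from 35.9 to 43.8 FPKM (log2 change 0.28, adjusted p = 0.0413) and also from PD15 to PD16 (0.39, adjusted p = 0.0378). Klf4, known as a repressor of smooth muscle genes, rose from 2.53 to 3.97 FPKM (0.49, adjusted p = 0.0472). Smad3, which carries TGF-β signals, fell from 49.3 to 36.7 FPKM, with a log2 change of -0.42 and an adjusted p of 0.0316. In all 3 the libraries of PD14 and PD16 did not overlap, where 15% of all genes were higher without overlap. The 3 were named for their calls, so this adds little to them. With 1 library left out, the call from PD14 to PD16 was kept for Fhl2 without PD14 replicate 1 or PD15 replicate 3, for Klf4 without PD16 replicate 2, and for Smad3 without PD14 replicate 2 or PD15 replicate 2 or 3. In the other fits of this kind the adjusted p reached 0.137 for Fhl2, 0.1495 for Klf4 and 0.105 for Smad3. The Fhl2 call from PD15 was kept without PD14 replicate 1 or 2 and otherwise reached 0.124, and it was lost under the replicate block (0.0693), without the filter on low genes (0.0811) and without the intensity trend (0.0511). From PD14 to PD16 and under the other alternatives, Myocd passed in 8 of 9, Fhl2 in 5 of 10, Klf4 in 4 of 9 and Smad3 in 6 of 10, with an adjusted p of up to 0.0702, 0.0786, 0.117 and 0.0786. Fhl1 and Gata6, abundant members of the axis, had log2 changes of 0.34 (adjusted p = 0.0747) and -0.33 (0.0976).

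Of 22 paralogues of the members, 12 were tested. At PD16, 10 were higher than at PD14 and 1 was called, against 52.2% and 4.25% of all genes, and 1 was called from PD14 to PD15, against 0.678%. Among the non-muscle forms, Actb averaged 316 FPKM at PD14 and 428 FPKM at PD16 (log2 change 0.44, adjusted p = 0.0608), while Actg1, Tpm4 and Cnn3 had log2 changes of 0.15, 0.19 and 0.09 without a call. Tpm3, a tropomyosin of slow muscle and of non-muscle cells, was the one called. Tpm3 was at 25.1, 25.4 and 19.0 FPKM at PD14, at 12.7, 12.6 and 10.9 FPKM at PD15 and at 11.6, 12.03 and 11.2 FPKM at PD16. The PD14 libraries were all above the later ones. The log2 change was -0.88 at PD15 (adjusted p = 0.0155) and -0.93 at PD16 (adjusted p = 0.00680), and the PD16 call was kept in 9 of 9 fits that left out 1 library. The PD15 call was lost without PD15 replicate 1 or 2 (0.0687 and 0.0570). The fall of Tpm3 is uncertain, because 15.8% of its stretches of 100 bases also occur in the copy Tpm3-rs7 (ENSMUSG00000058126). Tpm3-rs7 was at 41.5, 50.02 and 60.5 FPKM at PD14, at 72.9, 76.5 and 68.3 FPKM at PD15 and at 72.2, 79.3 and 69.3 FPKM at PD16. It thus went the other way in the same libraries, and how the counting divided reads between the copies was not tested.

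**Figure D4:**
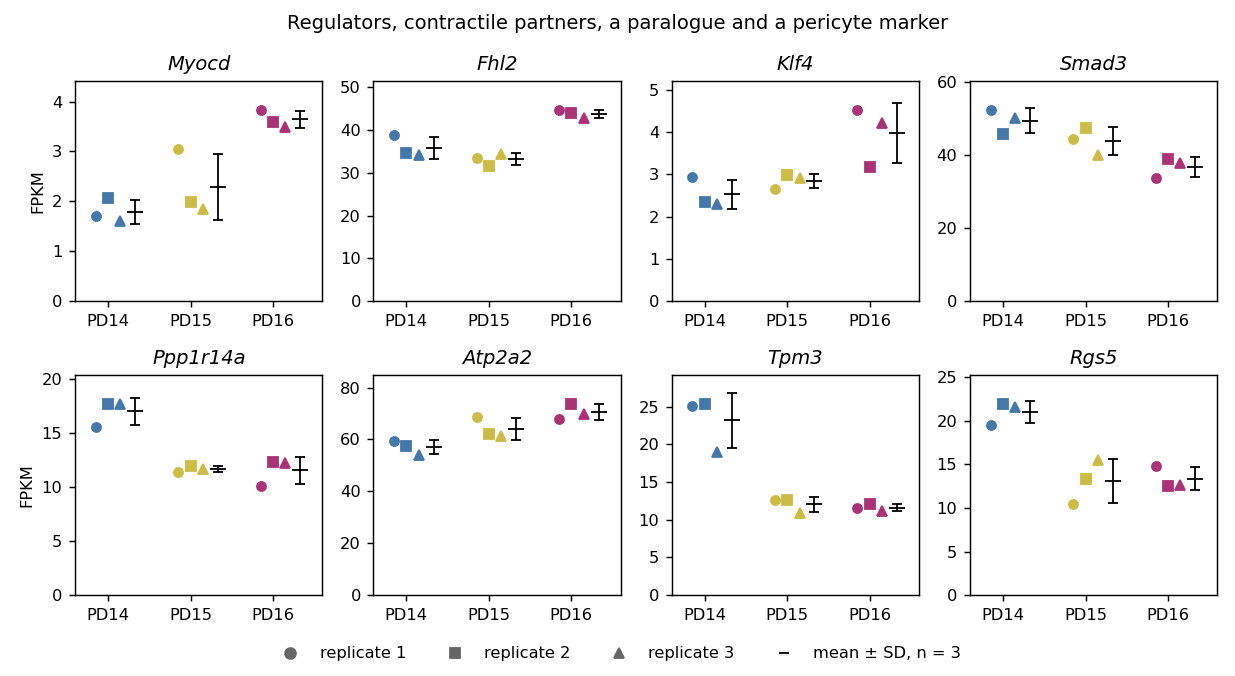
FPKM (y axis, from 0) by postnatal day (x axis) of regulators (Myocd, Fhl2, Klf4, Smad3), contractile partners (Ppp1r14a, Atp2a2), the paralogue Tpm3 and the pericyte marker Rgs5. Symbols are replicates and black bars the mean ± SD of 3 libraries. Myocd at PD16 lies between 3.50 and 3.84 FPKM, above all earlier libraries, and Ppp1r14a, Tpm3 and Rgs5 lie lower on both later days than at PD14.

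Markers of other cells and tissues were set beside the members, whether or not those cells express them. The calls among them are to be read against the 4.25% of all genes called from PD14 to PD16 and the 0.729% called from PD15 to PD16. Of 14 skeletal muscle markers, 2 were tested, Actn3 and Mylpf. Actn3 averaged 3.43 FPKM at PD14 and 2.78 FPKM at PD16 (log2 change -0.23, adjusted p = 0.183), and Mylpf 0.988 and 0.977 FPKM. Acta1 was at most 0.115 FPKM and Ckm at most 0.159 FPKM, and the 14 markers had a summed level of 6.62 to 7.86 FPKM at PD14, 6.94 to 7.81 at PD15 and 5.88 to 6.33 at PD16. Of 8 markers of the oviduct epithelium, 2 were tested, and their sum was 11.4 to 12.4, 13.0 to 16.6 and 12.5 to 16.4 FPKM, of which most was Tppp3. Both had a log2 change above 0 from PD14 to PD16, as the members had, with a median of 0.38 and no call. Ovgp1 was at most 0.779 FPKM and Pax8 at most 0.246 FPKM. Of 9 genes of Müllerian duct patterning, 3 were tested, Lhx1 and Hoxa11 were listed at 0 in every library, and the median log2 change of the 3 from PD14 to PD16 was 0.05. Emx2 fell (-0.42, adjusted p = 0.0177), a call lost without PD16 replicate 1 (0.0689), while Hoxd9 and Hoxd10 had log2 changes of 0.05 and 0.20 without a call. From PD15 to PD16 Emx2 also fell (-0.43, adjusted p = 0.0378), a call kept in 2 of 9 fits that left out 1 library. The 11 pericyte markers summed to 110.1 to 119 FPKM at PD14, 96.6 to 99.8 at PD15 and 105 to 109 at PD16, and 8 of the 11 were lower at PD16 than at PD14. From PD15 to PD16, 9 of the 11 were higher (median log2 change 0.09), as were the members. Rgs5, a pericyte marker, fell from 21.03 ± 1.29 to 13.3 ± 1.31 FPKM (log2 change -0.62, adjusted p = 0.0294), a call that was lost when any PD14 or PD16 library was left out (0.0660 to 0.1004), under the replicate block (0.0648) and without the filter on low genes (0.0826). The 10 endothelial markers summed to 118 to 133, 107 to 115 and 103 to 111 FPKM, and 9 of the 10 were lower at PD16 than at PD14, with Tie1 called (log2 change -0.25, adjusted p = 0.0458), a call that was lost in 9 of 9 fits that left out 1 library (0.0555 to 0.136). Of 10 theca and interstitial markers, 5 were higher and 5 lower at PD16 than at PD14 (median log2 change 0.02), and 8 of the 10 were higher at PD16 than at PD15 (0.07). Of 6 fibroblast markers, 6 were lower at PD16 than at PD14 (median -0.10). In these lists limma called 0 genes, and from PD14 to PD16 2 theca markers, Hsd3b1 and Lhcgr, and 0 fibroblast markers had an unadjusted p under 0.05, as had 22.8% of all genes. The 10 oocyte genes went from 8 higher and 2 lower at PD15 against PD14 (median log2 change 0.22) to 10 of 10 lower at PD16 against PD15 (-0.40), the comparison in which 10 of 10 members were above 0. The part of these cells in the members' levels was not tested.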

How the data were processed

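Ovary RNA of each day (3 libraries for PD14, PD15 and PD16 each) was prepared with the NEBNext Ultra kit from 1 μg of RNA and sequenced on an Illumina HiSeq platform. The submitters' processing notes name HISAT2 2.0.5 and the build mm10. The counter, annotation and strand setting are not given in the sources used here. The authors deposited FPKM, 1 table per library, and these were used without rescaling. They hold no counts, so depth and fragments were derived from FPKM steps and GENCODE M21 exon lengths (93.4% to 93.8% of low values whole within 0.02 of a fragment). Fragments are not given for Acta2, Myh11 and Mylk, whose values were not whole with these lengths. No 2 libraries were identical.

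Of 52025 genes, 18068 were at 0 in every library, and the 15495 whose mean FPKM exceeded 1 on some day were tested. One limma model with an intensity trend and 3 day groups was fitted to log2(FPKM + 1) of all 9 libraries, with Benjamini-Hochberg adjustment and a threshold of 0.05. Fold changes on this scale understate those of low genes. An exact permutation test of 3 against 3 libraries cannot go below 0.1. In a simulation of 9 libraries and 15495 genes, with independent normal noise, 200 genes were shifted at PD16. From PD14 to PD16, a shift of 0.5 on the log2 scale was recovered in 58% of them, and a shift of 1 in 90.5%. Smaller shifts and noise shared between genes were not simulated, so these shares do not give the power for the members.

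The members and lists were chosen with earlier results of these data known. Genes named were all members, list genes with a call and the 4 most abundant genes of each smooth muscle list. Defining markers of other cells and the 5 genes most like the members' mean were also named. Pcsk7, Tpm3-rs7, Srf, Ctgf, the Mkl, Hoxd and Upk genes, Msln, Actn3 and Mylpf were named after their values were seen. So were Kcnmb1, Synpo2, Lrrn4 and Hba-a2. All list symbols were matched, 6 through a newer symbol. Positions are those of GENCODE M21 on GRCm38, which is mm10. Alternatives were pseudocounts, filters, scalings, limma settings, the replicate block, only the days compared, and each library left out. Tools were limma 3.58.1 in R 4.3.3, and pandas 2.3.3, NumPy 2.4.6 and Matplotlib 3.10.9 in Python 3.11.15.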

Additional observations from a re-analysis of the deposited data

How the results depend on the processing

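Of 560 results of single members under the alternatives, 534 kept their direction and their side of the threshold, 17 changed sign and 9 lost the Cnn1 call from PD14 to PD16. Much of this count was fixed in advance. Filters, limma settings and the replicate block leave a log2 change as it is, and all results but that call were uncalled from the start. The Cnn1 call was kept in 3 of 9 fits that left out 1 library and in 7 of 10 other alternatives. With 1 library left out, the medians over the members ran from -0.0828 to 0.0488 for PD14 to PD15. They ran from 0.123 to 0.251 for PD14 to PD16 and from 0.1298 to 0.311 for PD15 to PD16. Under the other alternatives, in the same order, the ranges were -0.0338 to -0.00416, 0.183 to 0.264 and 0.199 to 0.264. Leaving out Tagln, an alternative chosen after the data were seen, changed no count of members called. The number of members called from PD14 to PD16 was 1, and it was 0 without an expression filter, with equal totals and under the replicate block, and 0 to 1 with 1 library left out. A pairing of libraries by replicate number was not seen. Of 9 correlations between libraries of the same number, 2 were above 0.1 (range -0.21 to 0.16), against 6 of 18 for other numbers (-0.20 to 0.21). Such correlations cannot exclude a pairing, because they share libraries and each day has few. The labels do not say what the numbers stand for. Under the replicate block 24, 227 and 56 genes were called from PD14 to PD15, PD14 to PD16 and PD15 to PD16, where 105, 659 and 113 were called without it. Without an expression filter these counts were 29, 172 and 24. The count for PD14 to PD15 was also 63 with a mean FPKM above 5 and 46 with only the 2 days fitted, and that for PD14 to PD16 was 417 with equal totals and 323 with only the 2 days fitted. With 1 library left out the counts ran from 3 (without PD15 replicate 1) to 92, from 92 (without PD16 replicate 1) to 660, and from 14 (without PD15 replicate 1) to 125. The sign changes were all in uncalled values. Cald1 from PD14 to PD16 was -0.00357 with equal totals, and ran from -0.0111 to 0.0814 with 1 library left out, Mylk from -0.0158 to 0.170. From PD14 to PD15 the ranges were -0.0844 to 0.285 for Actg2, -0.0580 to 0.172 for Myh11, -0.0552 to 0.129 for Tagln, -0.0777 to 0.112 for Des, -0.0812 to 0.0686 for Lmod1 and -0.148 to 0.0290 for Mylk. From PD15 to PD16, Ppp1r14a ran from -0.0586 to 0.0702 and Rgs5 from -0.102 to 0.163. The causes were not tested. Among the members whose fragments were derived, Tagln (31 to 65 per library) and Des (140 to 238) rested on the fewest.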

Other observations

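Immediate early genes, which serum response factor also drives but through other partners, were set beside the members. Of 12 listed, 8 were tested. From PD14 to PD15, 2 were higher and 6 lower, with a median log2 change of -0.04. From PD15 to PD16 all 8 had a log2 change above 0, with a median of 0.21, and 1 was called, where 53.1% of all genes were above 0 and 0.729% were called. That gene was Fos, at 1.34, 1.14 and 1.42 FPKM at PD14, at 0.685, 1.32 and 0.858 FPKM at PD15 and at 2.75, 1.99 and 2.47 FPKM at PD16. All PD16 libraries of Fos were above all earlier ones. The log2 change from PD15 to PD16 was 0.81 (adjusted p = 0.0434), kept in 2 of the 9 limma fits that left out 1 library, those without replicate 2 of PD14 or of PD15, with an adjusted p of up to 0.139 in the others. It was also lost under the replicate block (0.0981), without the filter on low genes (0.125) and with only the 2 days compared (0.0696). Ctgf, the gene of connective tissue growth factor, averaged 18.4 FPKM at PD14 and 30.6 FPKM at PD16 (log2 change 0.69, adjusted p = 0.0780).

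Of 9 markers of surface epithelium and mesothelium, 7 were tested. From PD14 to PD16, 3 were higher and 4 lower, with a median log2 change of -0.09, where 52.2% of all genes were higher. Of the 7, 3 were called, all of them keratins, where 4.25% of all genes were called. Lrrn4, the other lower gene, passed the filter through its PD14 mean alone, so it had to be lower later on average. The median of -0.09 was its own change. Krt8 fell from 23.3 to 16.4 FPKM, a log2 change of -0.48 (adjusted p = 0.0222). Krt18 fell from 10.04 to 7.09 FPKM (log2 change -0.45, adjusted p = 0.0121) and Krt19 from 10.96 to 7.96 FPKM (log2 change -0.42, adjusted p = 0.0335). For these keratins no library of PD16 reached those of PD14, which adds little, since they were named for their calls. The Krt8 call was lost without PD14 replicate 2 or 3 or PD16 replicate 1 (0.0503 to 0.0825) and without the filter on low genes (0.0571), and the Krt18 call without PD16 replicate 1 (0.0510). With 1 library left out, the Krt19 call was kept only where that library was of PD15 (otherwise 0.0529 to 0.106), and it was lost without the filter on low genes (0.0834) and with equal totals (0.0687). Upk3b, Msln and Upk1b had log2 changes of 0.05, 0.11 and 0.09 without a call.

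Of 9 granulosa cell markers, 4 were higher and 5 lower from PD14 to PD16 (median log2 change -0.03). Amh, the gene of anti-Müllerian hormone, rose from 176 FPKM at PD14 to 245 FPKM at PD16 (log2 change 0.47, adjusted p = 0.0223). Cyp19a1, which encodes aromatase, fell from 5.11 to 2.37 FPKM (-0.84, adjusted p = 0.0316). Of the 10 oocyte genes, 3 were higher and 7 lower from PD14 to PD16 (median log2 change -0.25). In this comparison 1 was called, Bmp15, where 4.25% of all genes were called, and 1 from PD14 to PD15 and 2 from PD15 to PD16, where 0.678% and 0.729% were. Bmp15 rose from 49.7 to 65.4 FPKM (0.39, adjusted p = 0.0331). Nlrp5 rose from 90.8 FPKM at PD14 to 153 FPKM at PD15 (0.76, adjusted p = 0.0377) and fell to 92.5 FPKM at PD16 (-0.72, adjusted p = 0.0439), while Zp2, a zona pellucida gene, fell from 268 FPKM at PD15 to 176 FPKM at PD16 (-0.61, adjusted p = 0.0427). Plin1, the one tested of 7 fat cell markers (the other 6 were at most 0.911 FPKM), fell from 6.97 FPKM at PD14 to 4.23 FPKM at PD15 (-0.60, adjusted p = 0.0377) and stood at 4.65 FPKM at PD16 (-0.50 from PD14, adjusted p = 0.0294). Of 6 red cell genes, 5 were tested. From PD14 to PD15, 5 of 5 were lower (median log2 change -1.02), where 51.9% of all genes were higher. From PD15 to PD16, 4 of 5 were higher (0.46). Hba-a2 passed the filter through its PD14 mean alone, so it had to be lower later on average. Limma called Hba-a1, a haemoglobin gene of red blood cells, from PD14 to PD15 (-1.35, adjusted p = 0.0381), where 0.678% of all genes were called. Hba-a1 fell from 87.4 to 33.7 FPKM, and was at 62.2, 82.8 and 41.4 FPKM at PD16. Its value is uncertain because a near-identical copy, Hba-a2, can share its reads. The 9 calls of this paragraph were each lost without the filter on low genes (adjusted p of 0.0623 to 0.125 in limma). Under the replicate block, the calls of Cyp19a1, Bmp15 and Hba-a1 and the PD15 calls of Nlrp5 and Plin1 were also lost (0.0602 to 0.0923). Those of Amh (0.0446) and of Plin1 at PD16 (0.0468) were kept under it. With 1 library left out, the Amh call was kept in 6 of 9 limma fits and each of the others in 1 to 4, with an adjusted p of up to 0.141.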
